A study of Rattus norvegicus with 16 samples.

Results

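The 9 genes described here make or carry heparan sulphate: the 6-O-sulphotransferases Hs6st2 and Hs6st1, the chain polymerases Ext1 and Ext2, the N-sulphotransferase Ndst1, and the core proteins Sdc2, Sdc4, Gpc1 and Agrn. They were chosen by symbol from the array annotation, which gave them 12 of the 31099 probe sets and made them 9 of the 14218 genes that a probe set named alone. All 9 genes had a probe set that passed the filter on dim signal. In the study, laser capture took small regions of rat muscle cut in frozen sections and stained for acetylcholinesterase, the enzyme that marks the neuromuscular junction. Per the labels, the 16 arrays fall into 4 groups of 4: EOM synapse, EOM fiber, TA synapse and TA fiber. EOM is the rectus extraocular muscle, which moves the eye. TA is the tibialis anterior, a limb muscle. The synapse groups hold the stained junctions and the fiber groups hold muscle away from them, each from rats 15, 25, 27 and 29. No treatment or genetic change is in the labels, and the strain, age and sex of the rats are given in none of the sources used here. Each captured sample pooled small regions of 1 muscle, about 1000 junctions or a like amount of other regions, so it holds whatever cells lie at those regions.

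Heparan sulphate is a long sugar chain built on a core protein in the Golgi. The exostosins EXT1 and EXT2 together lengthen the chain, NDST enzymes remove acetyl groups and add sulphate to the nitrogen, and later enzymes, the HS6ST family among them, sulphate particular positions, which sets which growth factors and matrix proteins the chain can hold. At the neuromuscular junction heparan sulphate proteoglycans lie in the synaptic basal lamina, and agrin, one of them, drives the clustering of acetylcholine receptors through LRP4 and MuSK.

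All values below are log2(intensity + 16) after quantile normalization, unless intensity is named. An array then has a median of 5.88. Levels of different probe sets are not set against each other, because probe sets differ in brightness. A gene was called where limma gave a Benjamini-Hochberg adjusted p under 0.05 over 10416 genes. Before quantile normalization, arrays within a group correlated at r = 0.867 to 0.949, taken over all probe sets but the controls. Probe sets do not count as replicates. The label check genes followed the labels: Myh13, the extraocular myosin, averaged 13.51 in EOM synapse and 4.53 in TA synapse, and Hoxa9, a limb patterning gene, averaged 4.55 in EOM synapse and 9.63 in TA synapse. Chrne, the receptor subunit made at adult junctions, averaged 11.36 in EOM synapse and 4.99 in EOM fiber, and 10.42 in TA synapse and 4.39 in TA fiber.

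At the junction, the enzyme Hs6st2 rose most among the 9 genes, 22.9-fold in EOM and 16.4-fold in TA. The core proteins Sdc2 and Sdc4 also rose at the junction of both muscles, and Agrn rose at the EOM junction. Gpc1 fell at both. Hs6st1, Ext1, Ext2 and Ndst1 passed the test at neither junction. In EOM synapse against EOM fiber, 4 of the 9 genes were higher and 1 lower, where 10.1% of all genes were called (5.62% higher and 4.51% lower). In TA synapse against TA fiber, 3 were higher and 1 lower, where 10.2% of all genes were called (6.7% higher and 3.53% lower). The median difference of the 9 genes was 0.24 in EOM and 0.48 in TA, against -0.039 and -0.013 over all genes.

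**Figure D1:**
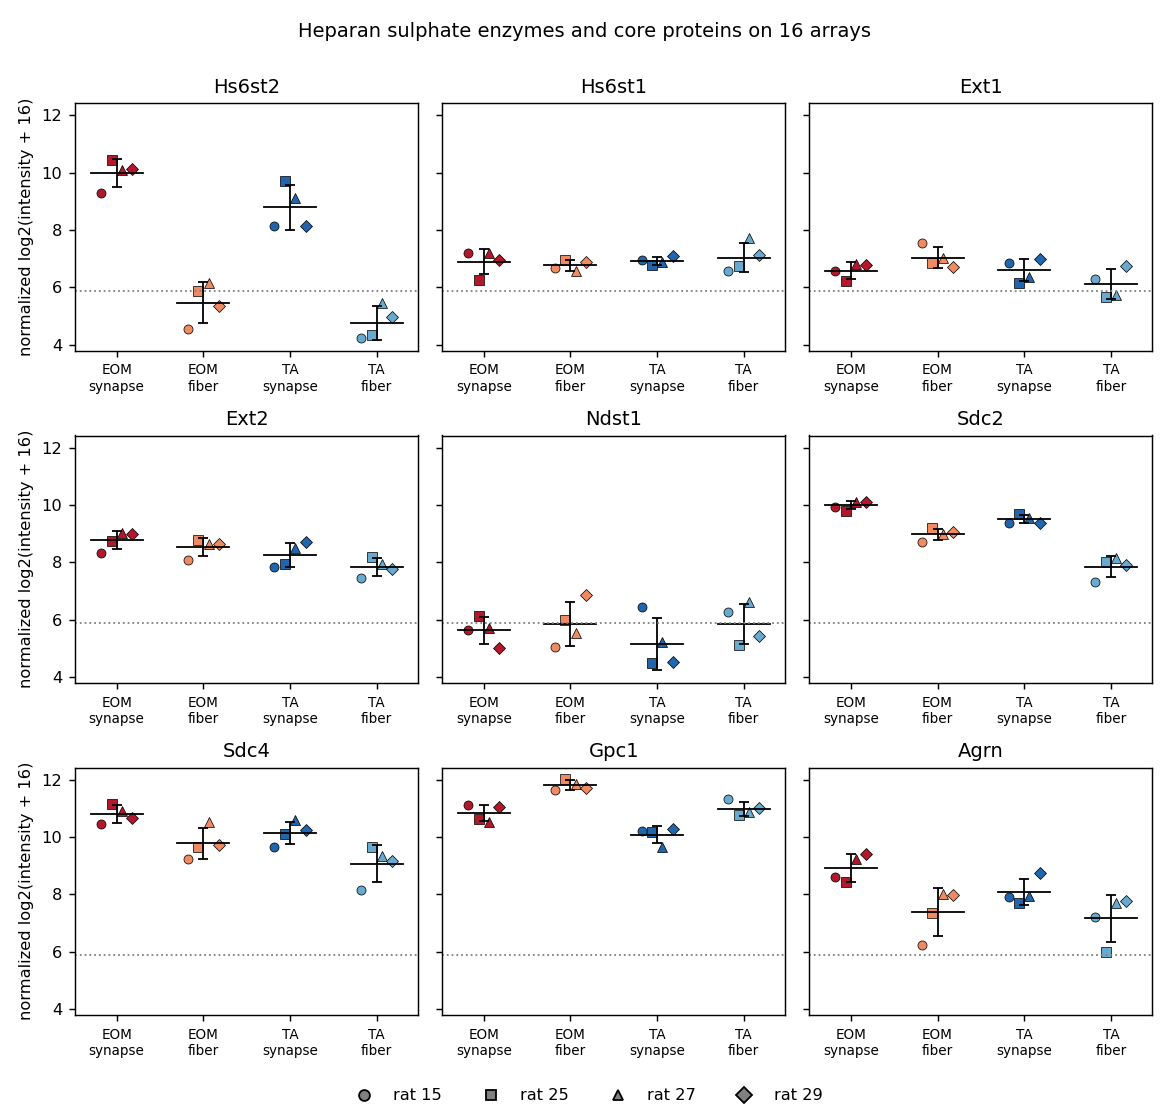
Normalized log2 values of the 9 genes on each array, by group, with the group mean ± SD (n = 4 rats). Hs6st2 in EOM synapse (9.29 to 10.43) and TA synapse (8.15 to 9.73) lies above every fiber array (4.23 to 6.15), while Gpc1 lies lower in each synapse group than in its fiber group.

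Promoter windows were taken from RefSeq on assembly GRCr8, 250 bases before to 50 after the start, and 5 of the 9 genes had one (Hs6st2, Hs6st1, Ndst1, Sdc4 and Agrn). They were searched on both strands for the N-box CCGGAA, a motif known from promoters of junction genes, and for the E-box CANNTG, a motif of muscle transcription factors. Over 33469 windows of 300 bases, 15% held the N-box and 72.1% the E-box. Hs6st2 is shown because its signal differed most between junction and fiber, Sdc4 because it was the only one of the 5 windows with an N-box, and Chrne, which has a known junctional N-box, for comparison. Each sequence runs 5′ to 3′ along the gene's minus strand, and capitals mark the E-box in Hs6st2 and the N-box in the other two.
Hs6st2 chrX:136182105-136182404: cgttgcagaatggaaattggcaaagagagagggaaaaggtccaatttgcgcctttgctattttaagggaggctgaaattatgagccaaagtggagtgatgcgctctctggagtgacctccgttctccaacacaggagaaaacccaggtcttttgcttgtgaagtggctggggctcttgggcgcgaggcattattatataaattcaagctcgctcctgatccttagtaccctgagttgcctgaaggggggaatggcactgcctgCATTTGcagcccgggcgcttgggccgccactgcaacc
Sdc4 chr3:173592874-173593173: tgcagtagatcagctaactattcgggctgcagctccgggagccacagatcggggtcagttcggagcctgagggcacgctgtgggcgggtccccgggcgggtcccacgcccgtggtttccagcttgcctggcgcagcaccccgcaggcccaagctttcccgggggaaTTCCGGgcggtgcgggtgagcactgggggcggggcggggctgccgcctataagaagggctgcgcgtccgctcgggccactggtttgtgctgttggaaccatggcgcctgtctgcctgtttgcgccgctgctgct
Chrne chr10:55834175-55834234: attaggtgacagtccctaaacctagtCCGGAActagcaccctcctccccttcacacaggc
The Hs6st2 window had no N-box and 1 E-box, CATTTG, 13 bases after the start. The Sdc4 N-box stood on the opposite strand, so it reads TTCCGG, 84 bases before the start, and that of Chrne stood on the given strand 54 bases before it. Agrn had neither motif in its window, and Hs6st1 and Ndst1 held 2 and 1 E-boxes. A match describes the letters only.

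Hs6st2 encodes a Golgi enzyme that adds sulphate to the 6-O position of glucosamine in the chain. Its probe set 1380138_at gave 9.29, 10.43, 10.11 and 10.13 in EOM synapse of rats 15, 25, 27 and 29, against 4.54, 5.86, 6.15 and 5.35 in EOM fiber of the same rats. In TA synapse it gave 8.15, 9.73, 9.13 and 8.15, against 4.23, 4.35, 5.47 and 4.98 in TA fiber. Every synapse array stood above every fiber array, with no overlap in either muscle. The deposited intensities ran from 621 to 1265 in EOM synapse and from 9.17 to 56.4 in EOM fiber, and from 270 to 861 in TA synapse and from 2.88 to 25.4 in TA fiber. Fiber signal was thus near the dim end of the array, and the probe set was above its array's median on 9 of 16 arrays. These were every synapse array and EOM fiber of rat 27, so the probe set passed the filter through the synapse groups. The difference was 4.52 ± 0.29 (SE) in EOM (adjusted p = 6.46e-07) and 4.03 ± 0.29 in TA (adjusted p = 8.14e-07), higher in 4 of 4 rats each. With so dim a fiber level the size depends on the pseudocount: it was 5.23 in EOM and 5.43 in TA with a pseudocount of 1, and 3.50 and 2.70 with a pseudocount of 64.

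Hs6st1 encodes the related enzyme of the same step. It gave 7.19, 6.26, 7.20 and 6.95 in EOM synapse, against 6.68, 6.95, 6.56 and 6.88 in EOM fiber. It gave 6.97, 6.77, 6.87 and 7.10 in TA synapse, against 6.58, 6.74, 7.72 and 7.13 in TA fiber. All 4 groups overlapped. The differences were 0.13 in EOM (95% interval -0.40 to 0.67, adjusted p = 0.792) and -0.12 in TA (-0.65 to 0.42, adjusted p = 0.839). The intervals leave out a change of the size seen for Hs6st2.

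Ext1 and Ext2 encode the partners of the polymerase that lengthens the chain. The Ext1 probe set 1373393_at gave 6.57, 6.21, 6.80 and 6.79 in EOM synapse, against 7.55, 6.85, 7.03 and 6.70 in EOM fiber. It gave 6.86, 6.16, 6.38 and 6.98 in TA synapse, against 6.31, 5.66, 5.74 and 6.75 in TA fiber. Ext1 was thus lower at the EOM junction in 3 of 4 rats and higher at the TA junction in 4 of 4, with overlapping groups in both. Neither difference passed the test, at -0.44 ± 0.23 in EOM (adjusted p = 0.265) and 0.48 ± 0.23 in TA (adjusted p = 0.234). A second Ext1 probe set, 1392083_at, was above its array's median on 1 of 16 arrays and was not tested.

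Ext2 gave 8.32, 8.75, 9.01 and 9.0 in EOM synapse, against 8.06, 8.77, 8.63 and 8.65 in EOM fiber. It gave 7.85, 7.95, 8.50 and 8.69 in TA synapse, against 7.45, 8.18, 7.93 and 7.76 in TA fiber. The groups overlapped in both muscles, with differences of 0.24 ± 0.19 in EOM (adjusted p = 0.481) and 0.42 ± 0.19 in TA (adjusted p = 0.211). Ndst1, the enzyme that opens the way for the later sulphation steps, was dim: it was above its array's median on 6 of 16 arrays and ranged from 4.48 to 6.86. Its differences were -0.24 ± 0.49 in EOM (adjusted p = 0.814) and -0.68 ± 0.49 in TA (adjusted p = 0.449), and at that spread a change under 1 could not be told from 0.

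Sdc2 encodes syndecan-2, a core protein that spans the membrane. Its brightest probe set, 1382189_at, gave 9.93, 9.80, 10.09 and 10.10 in EOM synapse, against 8.72, 9.18, 8.97 and 9.04 in EOM fiber. It gave 9.38, 9.67, 9.56 and 9.38 in TA synapse, against 7.31, 7.99, 8.16 and 7.90 in TA fiber. Synapse and fiber arrays did not overlap in either muscle. The difference was 1.0 ± 0.18 in EOM (adjusted p = 0.00356) and 1.66 ± 0.18 in TA (adjusted p = 4.33e-05). The other probe sets of Sdc2 were fitted beside it over all 18726 probe sets that passed the filter, where 6.76% were called in EOM and 7.58% in TA. Probe set 1370166_at differed by 1.30 ± 0.36 in EOM (adjusted p = 0.0469) and 1.64 ± 0.36 in TA (adjusted p = 0.0129). Probe set 1370167_at differed by 0.42 in EOM (adjusted p = 0.498) and 0.72 in TA (adjusted p = 0.207), neither past the threshold. All 3 were higher at the junction on average, by unequal amounts.

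**Figure D2:**
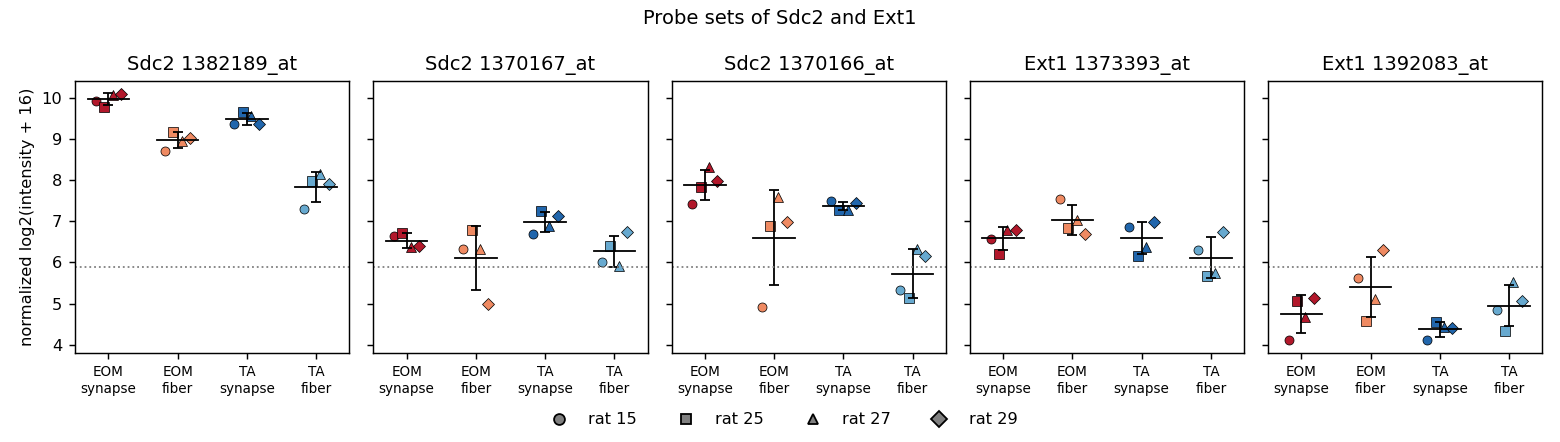
Normalized log2 values of the 3 probe sets of Sdc2 and the 2 of Ext1 on each array, by group, with the group mean ± SD (n = 4 rats). The dotted line is the median of a normalized array, 5.88, and the second Ext1 probe set, 1392083_at, lies above it on 1 of 16 arrays.

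Sdc4 encodes syndecan-4, a core protein found at sites of cell adhesion. It gave 10.45, 11.16, 10.92 and 10.68 in EOM synapse, against 9.24, 9.65, 10.51 and 9.72 in EOM fiber. It gave 9.66, 10.09, 10.61 and 10.26 in TA synapse, against 8.15, 9.65, 9.35 and 9.15 in TA fiber. Each rat's synapse array was above its own fiber array, and the groups overlapped in EOM, by 1 fiber array, but not in TA. The difference was 1.02 ± 0.22 in EOM (adjusted p = 0.0105) and 1.08 ± 0.22 in TA (adjusted p = 0.00646). The EOM call was lost without the rat as a block (adjusted p = 0.0639) and without rat 15, 25 or 29 (0.0649, 0.0539 and 0.0609), and the TA call without rat 15 or 29 (0.055 and 0.0514).

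Gpc1 encodes glypican-1, a core protein tied to the membrane by a lipid anchor. It gave 11.13, 10.64, 10.54 and 11.04 in EOM synapse, against 11.63, 12.03, 11.86 and 11.72 in EOM fiber. It gave 10.22, 10.16, 9.65 and 10.28 in TA synapse, against 11.31, 10.76, 10.87 and 11.01 in TA fiber. The synapse arrays lay below the fiber arrays with no overlap in either muscle. Gpc1 fell by 0.97 ± 0.20 at the EOM junction (adjusted p = 0.00717) and by 0.91 ± 0.20 at the TA junction (adjusted p = 0.00965). The EOM call was lost with arrays centred on a common median (adjusted p = 0.0733) and without rat 25 or 27 (0.0587 and 0.0586), and the TA call without rat 27 (0.0767).

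Agrn encodes agrin, the basal lamina proteoglycan whose nerve-made form clusters acetylcholine receptors and which muscle and Schwann cells also make in other splice forms. Its probe set 1370307_at gave 8.59, 8.43, 9.25 and 9.40 in EOM synapse, against 6.23, 7.35, 8.0 and 7.97 in EOM fiber. It gave 7.92, 7.68, 7.94 and 8.74 in TA synapse, against 7.21, 6.0, 7.69 and 7.75 in TA fiber. In EOM the groups did not overlap. In TA they did, because TA synapse of rat 25 stood below 2 TA fiber arrays, although every rat's synapse array was above its own fiber array. The difference was 1.53 ± 0.30 in EOM (adjusted p = 0.00566) and 0.91 ± 0.30 in TA (adjusted p = 0.0746, not called). The TA difference passed the test in 5 of 31 other settings: with the values as deposited (adjusted p = 0.0339), with a pseudocount of 64 (0.0266), without the 3 arrays of highest median together (0.0204), without EOM fiber of rat 15 (0.0231) and without TA synapse of rat 27 (0.0468). The probe set does not tell splice forms apart here.

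Markers of other cells moved with the same comparisons. Of 13 Schwann cell markers 10 were tested, and 7 were higher at the EOM junction and 7 at the TA junction, with none lower. S100b differed by 2.90 and Mbp by 2.83 in EOM, and Mbp by 3.09 and Pmp22 by 3.03 in TA. Their summed intensity, after normalization and with the pseudocount taken off, ran from 8160 to 15400 in EOM synapse and from 1880 to 2900 in EOM fiber, and from 3530 to 5820 in TA synapse and from 601 to 895 in TA fiber. Erbb3 was among those not tested. Of 9 fibroblast markers 8 were tested, all but Thy1. At the EOM junction 4 of them were higher and at the TA junction 6, with sums of 13500 to 27500 in EOM synapse and 4070 to 17700 in EOM fiber, and 7780 to 19600 in TA synapse and 1400 to 6030 in TA fiber. Of 11 endothelial markers tested out of 12 (all but Cdh5), 5 were lower at the EOM junction and 3 at the TA junction. Their sums were 1490 to 2370 in EOM synapse and 3130 to 3640 in EOM fiber, and 1160 to 2040 in TA synapse and 1980 to 2800 in TA fiber. Of 8 smooth muscle and pericyte markers tested out of 9 (all but Cnn1), 1 was higher and 3 lower at the EOM junction, and 1 higher and 2 lower at the TA junction. Of 9 macrophage markers tested out of 10 (all but C1qb), 1 was lower at the EOM junction and none was called at the TA junction. Of 10 neuron and axon markers 2 were tested, of which none was called at the EOM junction and 1, Gap43, was higher at the TA junction (1.33). The motor neuron markers Chat and Slc18a3 were among those not tested. Of 5 satellite cell markers 3 were tested, without Pax7 and Myf5, and none was called at either junction. The 3′ to 5′ ratio of the Gapdh control probe sets was 8.34 to 12.3 in EOM synapse and 10.7 to 14.8 in EOM fiber, and 7.84 to 19 in TA synapse and 10.5 to 15.4 in TA fiber. That of the actin control probe sets was 5.27 to 26.9 in EOM synapse and 8.35 to 12 in EOM fiber. In TA the actin ratio was 13.1 to 22.9 in synapse and 10.3 to 28 in fiber. The part of these in the differences of the 9 genes was not tested. In such bulk samples, fewer cells of a type and less RNA per cell cannot be told apart.

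The comparison of the muscles asks where EOM differs from TA, at the junction and away from it. Away from the junction, Sdc2, Gpc1, Ext1, Ext2 and Sdc4 were higher in EOM fiber than in TA fiber, which made 5 of the 9 genes, where 15.6% of all genes were called (8.4% higher and 7.15% lower). At the junction, Hs6st2 and Gpc1 were higher in EOM synapse than in TA synapse, 2 of the 9 genes, where 16.4% of all genes were called (7.82% higher and 8.61% lower). None of the 9 was called lower in EOM in either comparison. Their median difference was 0.71 between fibers and 0.52 between junctions, against 0.026 and 0.006 over all genes. Under other settings the count was 1 to 5 between fibers and 0 to 4 between junctions.

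**Figure D3:**
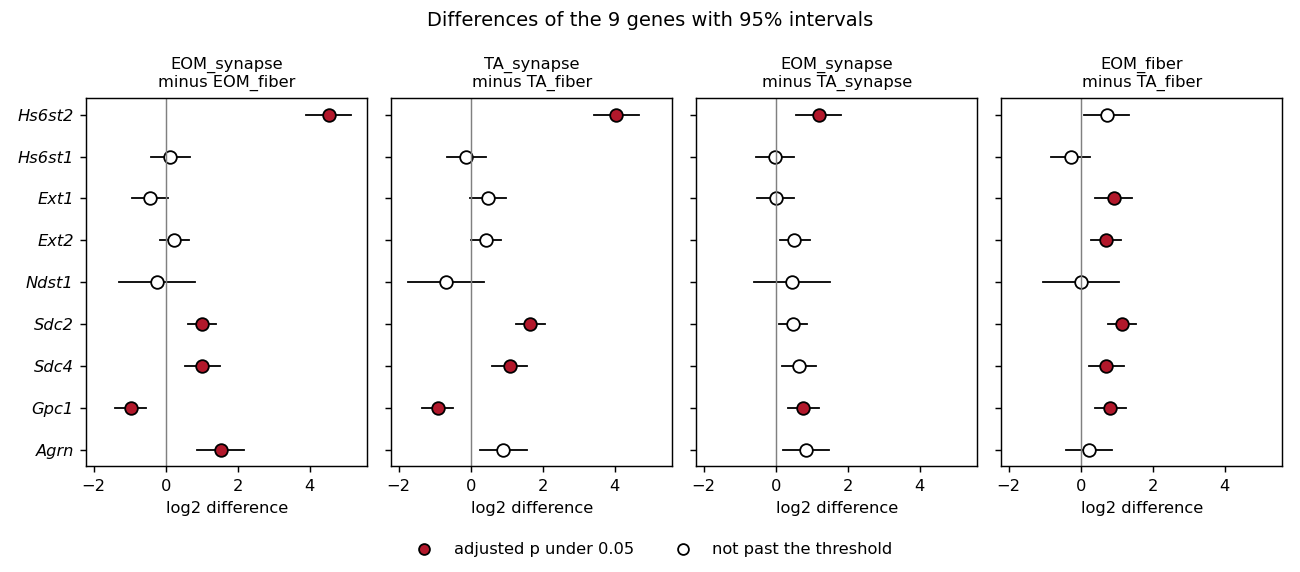
Log2 difference with its 95% interval (limma, 4 rats) for each of the 9 genes in 4 comparisons, filled where the adjusted p was under 0.05. Hs6st2 stands apart at both junctions (4.52 in EOM and 4.03 in TA), and Gpc1 alone is called lower at the junction.

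Gpc1 was the only one of the 9 called in all 4 comparisons. It was higher in EOM synapse than in TA synapse by 0.76 ± 0.20 (adjusted p = 0.018) and in EOM fiber than in TA fiber by 0.82 ± 0.20 (adjusted p = 0.0124), with no overlap in either. These calls changed with the processing: with arrays centred on a common median the adjusted p was 0.173 between junctions and 0.316 between fibers, where the difference fell to 0.49. Single arrays also ended them: EOM synapse of rat 15 or 29 (0.0575 and 0.0609) or TA synapse of rat 27 (0.0638) between junctions, and EOM fiber of rat 27 (0.0513) between fibers.

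Sdc2 was higher in EOM fiber than in TA fiber by 1.14 ± 0.18 (adjusted p = 0.000934), with no overlap, by its brightest probe set. The mean of its probe sets gave 0.62 (adjusted p = 0.0542), and probe set 1370167_at alone gave -0.15. Between junctions Sdc2 differed by 0.48 ± 0.18, which did not pass the test (adjusted p = 0.0884), although the 4 EOM arrays lay above the 4 TA arrays. Sdc4 was higher in EOM fiber by 0.71 ± 0.22 (adjusted p = 0.046), with overlapping groups, a call that 20 of 31 other settings lost. Between junctions Sdc4 gave 0.64 ± 0.22 (adjusted p = 0.0643).

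Ext1 was higher in EOM fiber by 0.92 ± 0.23 (adjusted p = 0.017) in 3 of 4 rats, with overlapping groups, and between junctions it gave 0.00 ± 0.23 (adjusted p = 0.993). The fiber call was lost without any 1 of EOM fiber of rats 15, 25 and 27 or TA fiber of rat 27 (adjusted p = 0.0512 to 0.062). Ext2 was higher in EOM fiber by 0.70 ± 0.19 (adjusted p = 0.0253) in 4 of 4 rats, and gave 0.52 ± 0.19 between junctions (adjusted p = 0.0801). Its fiber call was lost under 12 of 31 other settings, the fit without the rat as a block among them (adjusted p = 0.079).

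Hs6st2 was higher in EOM synapse than in TA synapse by 1.20 ± 0.29 (adjusted p = 0.0123), in 4 of 4 rats, although the lowest EOM array, 9.29, stood below the highest TA array, 9.73. That call was lost without the rat as a block (adjusted p = 0.0617), with a pseudocount of 1 (0.122) and without TA synapse of rat 29 (0.0533). Between fibers Hs6st2 gave 0.72 ± 0.29 (adjusted p = 0.114), at levels near the dim end. The 4 group means of Hs6st2 thus ran 9.99 ± 0.49 in EOM synapse, 8.79 ± 0.78 in TA synapse, 5.47 ± 0.71 in EOM fiber and 4.76 ± 0.58 in TA fiber (SD, n = 4). In that order the junction groups differed by the test and the fiber groups did not, and TA synapse and EOM fiber, which did not overlap, were not tested against each other. Agrn gave 0.85 ± 0.30 between junctions (adjusted p = 0.0706) and 0.22 ± 0.30 between fibers (adjusted p = 0.669). Between junctions Agrn passed the test in 6 of 31 other settings (adjusted p = 0.0121 to 0.0398), without EOM fiber of rat 15 (0.0234) or TA fiber of rat 25 (0.0398) among them. Hs6st1 and Ndst1 were called in neither comparison.

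Markers of other cells moved in these comparisons too. Between fibers 7 of 8 fibroblast markers, 5 of 9 macrophage markers, 3 of 10 Schwann cell markers and 2 of 11 endothelial markers were higher in EOM. Between junctions 3 Schwann cell and 2 fibroblast markers were higher in EOM, 1 smooth muscle and pericyte marker, Acta2, was lower (-0.95), and no macrophage, endothelial or satellite cell marker was called. Both neuron and axon markers tested, Nefm and Gap43, were higher in EOM, between junctions as well as between fibers, with median differences of 1.09 and 2.19, and 1 of 3 satellite cell markers, Vcam1, was higher between fibers (1.39, adjusted p = 0.0499). The summed neuron and axon markers were 155 to 416 in EOM synapse and 72.3 to 103 in TA synapse, and 172 to 257 in EOM fiber and 9.69 to 47.7 in TA fiber. The summed macrophage markers were 1270 to 2590 in EOM fiber and 668 to 966 in TA fiber. Their part in the results was not tested.

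Whether the junction difference itself was unequal in the muscles was tested as an interaction, the EOM difference minus the TA difference. None of the 9 genes passed, where 0.922% of all genes were called (0.259% higher and 0.662% lower). Ext1 and Sdc2 had the lowest unadjusted p of the 9, and the share of all genes with a p that low was not counted. The Ext1 interaction was -0.92 ± 0.33 (unadjusted p = 0.0148, adjusted p = 0.289). That of Sdc2 was -0.66 ± 0.26 (unadjusted p = 0.0241, adjusted p = 0.342). Both were below 0 in each of the 4 rats. For Agrn, called at the EOM junction and not at the TA junction, the interaction was 0.62 ± 0.42 (adjusted p = 0.651), so the difference between the muscles was not shown. For Hs6st2 it was 0.48 ± 0.41 (adjusted p = 0.749), and -0.19 with a pseudocount of 1.

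Other genes of the pathway were described from a list of 47, of which 32 were tested. At the EOM junction 7 were higher and none lower, 21.9% of those tested against 10.1% of all genes. At the TA junction 5 were higher and 1 lower, 18.8% against 10.2%. Between junctions 4 were higher in EOM, 12.5% against 16.4% of all genes, and between fibers 3, 9.38% against 15.6%. None passed the interaction test. Their median difference was 0.21 at either junction.

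Among chain-start and elongation enzymes, Extl2, an exostosin-like enzyme that acts on the linkage region, was called in all 4 comparisons. It gave 10.53, 10.36, 9.74 and 10.44 in EOM synapse, against 7.93, 8.19, 7.56 and 7.92 in EOM fiber. It gave 8.43, 8.90, 9.05 and 9.08 in TA synapse, against 6.05, 5.94, 5.54 and 6.26 in TA fiber. No 2 of the 4 groups overlapped. The junction difference was 2.37 ± 0.21 in EOM (adjusted p = 1.21e-05) and 2.92 ± 0.21 in TA (adjusted p = 9.25e-07), and EOM was higher by 1.41 between junctions (adjusted p = 0.000567) and 1.95 between fibers (adjusted p = 5.73e-05). Extl1, its relative, fell by 1.26 at the TA junction (adjusted p = 0.014), a call that 6 of 31 other settings lost. Among them were leaving out TA fiber of rat 27 and leaving out rat 15, 25 or 27. Of the 13 other modification enzymes 5 were tested (Ndst2, Glce, Hs2st1, Hs3st1 and Hs3st5), and none was called in any comparison.

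Among core proteins, the glypican Gpc4 gave 13.00, 12.44, 12.07 and 11.35 in EOM synapse, against 10.59, 10.87, 10.27 and 9.86 in EOM fiber. It gave 12.14, 11.76, 11.07 and 10.90 in TA synapse, against 9.01, 8.93, 9.02 and 9.29 in TA fiber. Gpc4 was thus higher at the junction with no overlap, by 1.82 in EOM (adjusted p = 0.000792) and 2.41 in TA (adjusted p = 4.85e-05), where Gpc1 was lower. Gpc3 was higher by 1.26 in EOM (adjusted p = 0.0178) and 1.67 in TA (adjusted p = 0.00283). Both were also higher in EOM fiber than in TA fiber, Gpc4 by 1.34 (adjusted p = 0.00435) and Gpc3 by 1.15 (adjusted p = 0.0204). At the TA junction Gpc6 was higher by 1.65 (adjusted p = 0.0318) and Col18a1, collagen XVIII of the basal lamina, by 2.05 (adjusted p = 0.00593). Neither was called at the EOM junction, where Gpc6 averaged 7.2 in synapse and 5.76 in fiber, and Col18a1 7.47 and 6.36. Hspg2, which encodes perlecan, the proteoglycan that anchors acetylcholinesterase, gave 0.05 in EOM (adjusted p = 0.941) and -0.38 in TA (adjusted p = 0.495). Of 31 other settings, 7 lost the Gpc3 call at the EOM junction, 8 its call between fibers and 12 the Gpc6 call. The Col18a1 call was lost without rat 15 or 25 (adjusted p = 0.0695 and 0.0525). With the mean of its probe sets, Gpc6 gave 0.67 at the TA junction (adjusted p = 0.118).

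Of the genes that supply sugars and sulphate, Ugdh, which makes the glucuronic acid donor, was higher by 1.33 at the EOM junction (adjusted p = 0.00156) and by 0.79 in EOM synapse against TA synapse (adjusted p = 0.023, lost in 9 of 31 other settings). Slc35b3, a carrier of the sulphate donor, was higher by 0.86 at the EOM junction (adjusted p = 0.0443, lost in 21 of 31 settings). Papss1, which makes that donor, was higher by 1.0 in EOM synapse than in TA synapse (adjusted p = 0.028, lost in 10 of 31). Of the genes that edit or break down the chain, Sulf2, an enzyme that removes 6-O-sulphate outside the cell, was higher by 1.10 at the EOM junction (adjusted p = 0.039, lost in 15 of 31). Ids, a lysosomal sulphatase, was higher by 0.96 at the EOM junction (adjusted p = 0.0245, lost in 12 of 31) and by 1.47 between junctions (adjusted p = 0.00113). None of Ugdh, Slc35b3, Sulf2 and Ids was called at the TA junction. There they averaged 7.82, 6.88, 6.9 and 10.72 in synapse, against 7.13, 6.71, 5.96 and 10.73 in fiber.

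**Figure D4:**
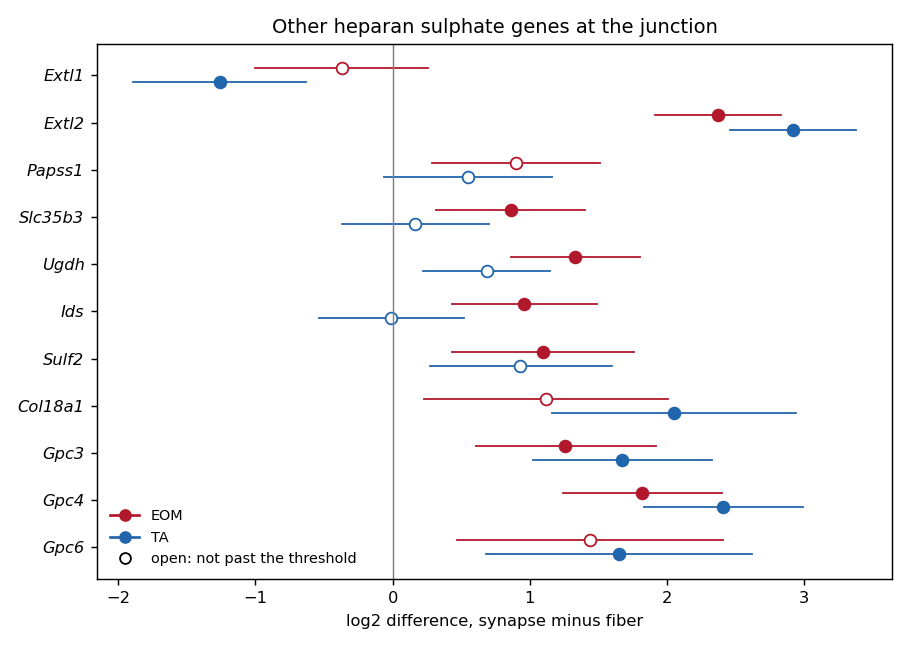
Log2 difference, synapse minus fiber, with its 95% interval (limma, 4 rats), in EOM and TA, of the other heparan sulphate genes past the threshold in any comparison, filled where past it at that junction. Extl2 (2.37 in EOM and 2.92 in TA) and Gpc4 (1.82 and 2.41) have the largest junction differences among those called in both muscles.

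Agrin acts through a receptor pathway whose genes were given as a list of 10, of which 9 were tested and Musk, the kinase, was not. At each junction 6 were higher and none lower, where 5.62% of all genes were called higher in EOM and 6.7% in TA. The list includes Chrne, one of the label check genes. Lrp4, the agrin receptor, gave 9.07, 9.33, 9.17 and 8.80 in EOM synapse, against 7.58, 8.94, 7.88 and 7.88 in EOM fiber. It gave 9.29, 9.91, 8.57 and 9.30 in TA synapse, against 6.37, 7.08, 6.11 and 6.43 in TA fiber. Lrp4 was higher by 1.02 in EOM (adjusted p = 0.0103) and 2.77 in TA (adjusted p = 2.34e-06). Its EOM call was lost with no block (adjusted p = 0.0553) and without rat 15 or 29 (0.0896 and 0.0564). Its interaction was -1.75 ± 0.31 (adjusted p = 0.0175), lost in 9 of 30 other settings, without EOM synapse of rat 29 (0.0519) or TA synapse of rat 15 or 29 (0.0516 and 0.0508) among them. Chrna1, the receptor's alpha subunit, was higher by 3.85 in EOM (adjusted p = 4.95e-06) and 6.75 in TA (adjusted p = 2.19e-08), with an interaction of -2.89 (adjusted p = 0.00698). Chrna1 averaged 12.81 in EOM synapse and 12.18 in TA synapse, and 8.96 in EOM fiber and 5.43 in TA fiber. The subunit genes Chrnd and Chrnb1 were higher by 1.68 and 0.72 in EOM and 2.75 and 1.18 in TA, and Chrne by 6.36 and 6.03. The Chrnb1 call in EOM (adjusted p = 0.0248) was lost in 11 of 31 other settings, each rat left out among them. Colq, which tethers acetylcholinesterase to the basal lamina, was higher by 2.13 in EOM (adjusted p = 0.00598) and 2.95 in TA (adjusted p = 0.000429). The Colq call in EOM was lost without rat 29 (adjusted p = 0.0545). Dok7, Rapsn and Dag1, which encode an activator of MuSK, the receptor scaffold and dystroglycan, were called in no comparison. Between fibers 5 of the 9 tested were higher in EOM, where 8.4% of all genes were called higher. Between junctions none was called, where 16.4% of all genes were.

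For the 3 genes with the widest range of group means, the genes most like them over the 16 arrays were found by Pearson's r, as a description that reflects the 4 groups all arrays share. For Hs6st2 these were Igsf11 (0.970), Epb41l4a (0.967) and Lgi4 (0.961). For Sdc2 they were Etv1 (0.971), Vsir (0.970) and Pmp22 (0.965). For Agrn they were Map4k4 (0.940), Dhh (0.931) and Lamc1 (0.925).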

How the data were processed

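RNA from 16 laser-captured samples was amplified over 2 cycles and hybridised to Affymetrix rat arrays, per the labels' protocols. The authors deposited 1 linear intensity per probe set, and the mean of an array, leaving out the brightest and dimmest 2% of its probe sets, was 150.06 to 150.08, a common scaling. No source used here names the software that turned probes into probe set values. Gene names came from the array annotation, with 20826 probe sets naming 1 gene, 436 several and 9780 unlisted.

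The 57 control probe sets were left out, log2(intensity + 16) was quantile normalized (array medians had been 33.43 to 57.04), and tests covered probe sets brighter than the median of the array on at least 4 arrays. A gene was represented by its brightest probe set on average. Group means were fitted with limma 3.58.1 in R 4.3.3 and the rat was a fixed block. The fit had 9 residual and 4.58 prior degrees of freedom. P-values were adjusted by Benjamini-Hochberg over 10416 genes in each of 5 contrasts. Fold changes are on the log2(intensity + 16) scale, which understates changes of dim genes. Intensities have no counting depth, and the number of arrays limits the precision.

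The title number was read as the animal. After group means were removed, 24 same-rat pairs correlated across genes at a mean of 0.112 (-0.067 to 0.245, 16 over 0.1). Pairs of different rats in different groups correlated at a mean of -0.037. Removing the group means ties that value to the same-rat mean, so it is no separate comparison. Each array's correlations with arrays of the other groups were also averaged by rat. The highest of these means was that of its own rat for 14 of 16 arrays. Regions of 1 rat share an animal, so the rat was a block. The p-values thus rest on how the group differences varied among 4 rats, with 1 spread shared by the 4 groups.

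The 9 genes, the other lists, the tests and the alternatives were chosen with earlier results of these data known. Named were all 9 genes, every other heparan sulphate gene past the threshold, every gene of the agrin receptor list, up to 2 genes of a marker list per contrast, the label check genes and 3 genes most like each of 3 members. Hspg2, Glce, Hs2st1, Hs3st1, Hs3st5 and Ndst2 fall outside that rule and were added after their values were seen. On simulated data with 10416 genes, 26% of genes changed by 1 and 82% of genes changed by 2 on the log2 scale were recovered at the EOM junction. For the interaction these shares were 6% and 60%. The simulation had no rat effect. It changed a smaller share of genes than was called at the EOM junction, and a larger share than was called in the interaction. Its shares thus need not hold for the real arrays. Alternatives were no block, a random block, only the arrays of a contrast, other scalings, no filter, pseudocounts of 1 and 64, the mean of probe sets, and each array or rat left out. Protein sequences were not used here.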

Additional observations from a re-analysis of the deposited data

Results flagged for a closer look

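The junction difference was unequal in the muscles for 2 genes of the agrin receptor list, by the interaction test in limma. Chrna1 had an interaction of -2.89 (EOM difference minus TA difference, adjusted p = 0.00698), lost with a pseudocount of 1 (adjusted p = 0.115) and without rat 15 or rat 29. Its means were 12.81 in EOM synapse and 12.18 in TA synapse, and 8.96 in EOM fiber and 5.43 in TA fiber. In TA fiber it ran from 4.16 to 6.55, near the dim end of the arrays. Lrp4 had an interaction of -1.75 (adjusted p = 0.0175), and under other settings its adjusted p ran from 0.00493 to 0.152. Its means were 9.09 in EOM synapse and 9.27 in TA synapse, and 8.07 in EOM fiber and 6.5 in TA fiber. Both genes were called higher in EOM between fibers (Chrna1 by 3.52 and Lrp4 by 1.57) and neither was called between junctions.

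Single arrays stood far from the other 3 of their group in 5 of 128 groups looked at, where chance gives about 1 in 20, and none of them concerned the 9 genes. They were Chrnd in TA synapse of rat 15 (9.21, the others 8.43 to 8.49), Dag1 in EOM fiber of rat 25 (10.65, the others 10.23 to 10.30), Dag1 in TA synapse of rat 27 (8.96, the others 10.12 to 10.32), Rapsn in EOM synapse of rat 25 (7.89, the others 7.39 to 7.47) and Slc35b3 in EOM fiber of rat 15 (5.55, the others 6.78 to 6.98).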

How the results depend on the processing

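The junction calls of Hs6st2, Sdc2 and Agrn in EOM and of Hs6st2 and Sdc2 in TA held under every alternative run, with Hs6st2 between 3.50 and 5.23 in EOM and between 2.70 and 5.43 in TA. The comparisons between muscles held less well. Of the 9 genes, the number called between EOM fiber and TA fiber, 5, became 3 with no replicate block and with a random block, and 1 with only the arrays of the contrast or with arrays centred on a common median. Between EOM synapse and TA synapse the number, 2, became 1 with no replicate block, with median centring and with a pseudocount of 1, and 4 with a pseudocount of 64. The pairing by rat changed the junction call of Sdc4 in EOM (1.02, adjusted p = 0.0639 with no block) and of no other of the 9 genes at either junction. With 1 array or 1 rat left out, the number was 3 to 5 at the EOM junction, 0 to 4 between junctions and 1 to 5 between fibers. The cause of these changes was not tested.

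Differences that changed sign were small and not called. Hs6st1 between junctions became 0.08 as deposited and with median centring, the Gpc1 interaction 0.16 with median centring, and the Hs6st2 interaction -0.19 with a pseudocount of 1. With 1 array or rat left out, Hs6st1 ran from -0.04 to 0.41 at the EOM junction, -0.30 to 0.13 at the TA junction, -0.18 to 0.16 between junctions, -0.46 to 0.02 between fibers and -0.17 to 0.58 in the interaction. Ndst1 ran from -0.70 to 0.31 at the EOM junction, -0.52 to 0.47 between fibers and -0.02 to 0.97 in the interaction. Agrn between fibers ran from -0.15 to 0.63, the Gpc1 interaction from -0.28 to 0.18 and the Sdc4 interaction from -0.44 to 0.20.

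Over all genes, median centring gave 689 calls at the EOM junction (547 higher and 142 lower) against 1055 (585 higher and 470 lower), 1139 against 1712 between junctions and 56 against 96 in the interaction. Between fibers 875 genes were higher and 745 lower, against 559 and 684 with median centring and 1146 and 752 as deposited. Between junctions 815 were higher and 897 lower, against 597 and 542 with median centring and 935 and 834 as deposited. Fitting only the arrays of the contrast gave 732 against 1620 between fibers, and the interaction gave 46 with a pseudocount of 1 and 218 with one of 64. With 1 rat left out the counts were 491 to 657, 602 to 683, 947 to 1225, 976 to 1197 and 23 to 47, for EOM junction, TA junction, between junctions, between fibers and interaction. Leaving out together the 3 arrays whose median was highest was added after the data were seen, and under it the Ext1 call between fibers was lost (adjusted p = 0.116) and Agrn was called at the TA junction (adjusted p = 0.0204). Ndst1, and Hs6st2 between fibers, sit near the dim end of the arrays, which limits what could be seen of them.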
